A study of Rattus norvegicus with 9 samples.

Results

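The 113 lysosome genes of rat lung described here are the entries of the deposited expression table that carried the KEGG pathway Lysosome in their annotation. Of 22833 entries, 123 carried it. Napsa, Lamp3, Cd68 and Slc11a2 were left out by name, and 6 of the remaining 119 had a mean FPKM (a read count scaled to transcript length and library size) under 0.5 over the 9 libraries. Abcb9, which encodes a peptide transporter of the lysosome, lay just inside that limit with a mean FPKM of 0.501, and Dnase2b lay just outside with 0.482. The other entries under the limit were Atp6v0d2, Ctsg, Psapl1, Hyal4 and Hyal6. Within this rule, expression values entered only through this mean over all libraries, and no difference between groups was used. The list itself was chosen with earlier results of these data known.

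RNA was sequenced from lungs of male Sprague-Dawley rats aged 8 weeks, in 3 libraries per group. In the IR (ischemia-reperfusion) group the hilum of the left lung was clamped for 30 min and then reperfused for 2 h. The I-post C (ischemic post-conditioning) group had the same clamping, followed by 3 short cycles, each with 30 s of renewed clamping and 30 s of release, and then by 2 h of uninterrupted reperfusion. In the Sham group the hilum was isolated without clamping. Rats of all 3 groups received urethane anaesthesia and heparin, were ventilated through a tracheotomy and had the chest opened. Which animal gave which library was not given in the sources used here, so the p-values measure the spread between libraries.

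Lysosomes are acidic compartments in which proteins, glycans, lipids and nucleic acids delivered by endocytosis, phagocytosis or autophagy are broken down. Most of their enzymes receive a mannose 6-phosphate tag in the Golgi, are bound there by receptors, and travel in vesicles that carry clathrin or adaptor coats, while a proton pump in the limiting membrane keeps the lumen acidic. In the lung, lysosomes are prominent in alveolar macrophages, which degrade inhaled material and spent surfactant, and a lysosome-related organelle, the lamellar body, stores surfactant in alveolar type 2 cells.

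Total counts ranged from 45110590 to 51214941 per library. These totals exceed the mapped reads that the study lists for the same libraries, and how the counts were made was not given in the sources used here, so they are not read here as sequencing depth. Levels of the surfactant gene Sftpc, a marker of alveolar type 2 cells, were 15691 to 37521 FPKM, and summed levels of 14 listed macrophage markers were 859 to 988 FPKM in Sham, 790.4 to 922 in IR and 769 to 861 in I-post C. That list holds Ctsd, a member, which alone had 485 to 748 FPKM. It made up most of the sum in every library, so that the sums say little about the other markers. Of the listed genes, 13 had a mean FPKM of at least 0.5, with Marco at or near 0. Of 14 listed neutrophil markers, 11 had a mean FPKM of at least 0.5 and Mpo reached at most 0.165. Their sums were higher in all 6 clamped libraries, at 132 to 207 FPKM in Sham, 343 to 911 in IR and 225 to 1369 in I-post C. S100a9 and S100a8 led them with means of 218 and 121 FPKM, and the listed markers did not all move alike. S100a9 and Mmp8 were higher in all 6. Fcgr3a was lower in all 6, at 27.73 to 36.8 FPKM in Sham, 17.5 to 27.70 in IR and 24.2 to 27.1 in I-post C. Padi4 overlapped between the groups. Skeletal muscle markers summed to 4737 FPKM in IR 3 and to at most 83.7 in the other libraries. In whole lung, fewer cells of a type and less RNA per cell cannot be told apart.

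The lysosome genes were well expressed and took similar shares of the libraries. Together they held 1.37% to 1.61% of all FPKM, lowest in IR 3 and highest in IR 1. Their median level was 25.1 FPKM, against 7.95 over the 15402 genes of the table that reached the same limit of 0.5 FPKM. Mean FPKM was over 100 for 19 members, between 10 and 100 for 69, between 1 and 10 for 22 and at most 1 for 3. The 5 most abundant members, Npc2, Ctsh, Ctsd, Psap and Ctsb, held 37.3% of the summed lysosome FPKM.

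Among the 14 cathepsins and other proteases, cathepsin H (Ctsh), a cysteine protease that processes surfactant proteins in alveolar type 2 cells, had the highest level. Its FPKM was 492, 681 and 665 in Sham 1 to 3, 512, 703 and 614 in IR 1 to 3 and 559, 437 and 706 in I-post C 1 to 3. Cathepsin D (Ctsd), the main aspartic protease of lysosomes, stood at 603, 748 and 578 in Sham, 656, 614 and 485 in IR and 555, 501 and 500.2 in I-post C. Cathepsin B (Ctsb), a cysteine protease, had 445, 527 and 408 in Sham, 611, 490.1 and 448 in IR and 443, 473 and 389.6 in I-post C. All 3 genes overlapped between Sham and IR, whereas every I-post C library lay below every Sham library for Ctsd. The summed level of the 14 proteases was 2377 to 2857 FPKM in Sham, 2412 to 2769 in IR and 2284 to 2588 in I-post C.

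The 20 glycosidases and glycan-degrading enzymes ranged from Galc, the galactosylceramidase, at a mean of 2.99 FPKM to the hyaluronidase Hyal2 at 110.4. Hyal2 had an FPKM of 98.4, 78.3 and 251 in Sham, 63.1, 131 and 54.3 in IR and 77.4, 63.1 and 177 in I-post C, so that its range within each group was wider than the gaps between group means. Aga, which splits the bond between asparagine and sugar chains, and Hexa, the alpha subunit of beta-hexosaminidase, had mean levels of 66.2 and 63.7 FPKM. Among the 7 entries of sulfatases and their activator, Arsb, which removes sulfate from dermatan and chondroitin sulfate, and Sumf1, which activates the sulfatases, had mean levels of 20.6 and 25.1 FPKM.

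The lipid-degrading enzymes and sphingolipid activators (8 members) were led by Psap, the precursor of the saposins, with 492, 549 and 568 FPKM in Sham, 531, 442 and 446 in IR and 453, 484 and 407 in I-post C. The thioesterase Ppt1 and the GM2 activator Gm2a followed with means of 164 and 124 FPKM. The 3 phosphatases and nucleases, Acp5, Dnase2 and Acp2, had means of 42.2, 40.2 and 19.8 FPKM. None of these 11 members fell below 8.55 FPKM, the level of Ppt2 in IR 1, in any library.

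Among the 20 membrane proteins, transporters and channels, Npc2, which binds cholesterol in the lumen and hands it to Npc1, was the most abundant lysosome gene of all. Its FPKM was 644, 799 and 1107 in Sham, 849, 970.1 and 891 in IR and 617, 600.1 and 965 in I-post C, and the 3 groups overlapped. The lysosomal transmembrane protein Laptm4a and the tetraspanin Cd63 followed with means of 327 and 234 FPKM. The major structural proteins of the membrane, Lamp1 and Lamp2, had means of 180.0 and 137 FPKM. Of the 8 proton pump members, the ring subunit Atp6v0c had the highest mean, 249 FPKM, ahead of the accessory subunit Atp6ap1 with 89.0 and Atp6v0d1 with 77.4.

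Among the 6 genes of the mannose 6-phosphate tag and sorting receptors, sortilin (Sort1) and the cation-dependent receptor M6pr stood side by side at means of 53.6 and 52.5 FPKM, within their spread of each other. Gnptg, a subunit of the phosphotransferase that makes the tag, had a mean of 20.3 FPKM. A further entry, LOC100909548, annotated as similar to the cation-dependent receptor, had a mean of 48.0 FPKM and may share reads with M6pr. The 24 clathrin and adaptor genes were led by the light chains Clta and Cltb and the heavy chain Cltc, with means of 94.8, 63.3 and 50.9 FPKM. The pathway annotation also held Mcpt8l2 and Mcpt8l3, closely similar mast cell protease 8-like genes that may share reads, with means of 12.7 and 3.24 FPKM. Mcpt8l2 had an FPKM of 3.05, 34.0 and 2.65 in Sham, 8.00, 4.88 and 32.7 in IR and 15.4, 10.3 and 3.75 in I-post C, high in Sham 2 and IR 3 and the widest spread of any member within a group (135.9% CV in Sham).

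**Figure D1:**
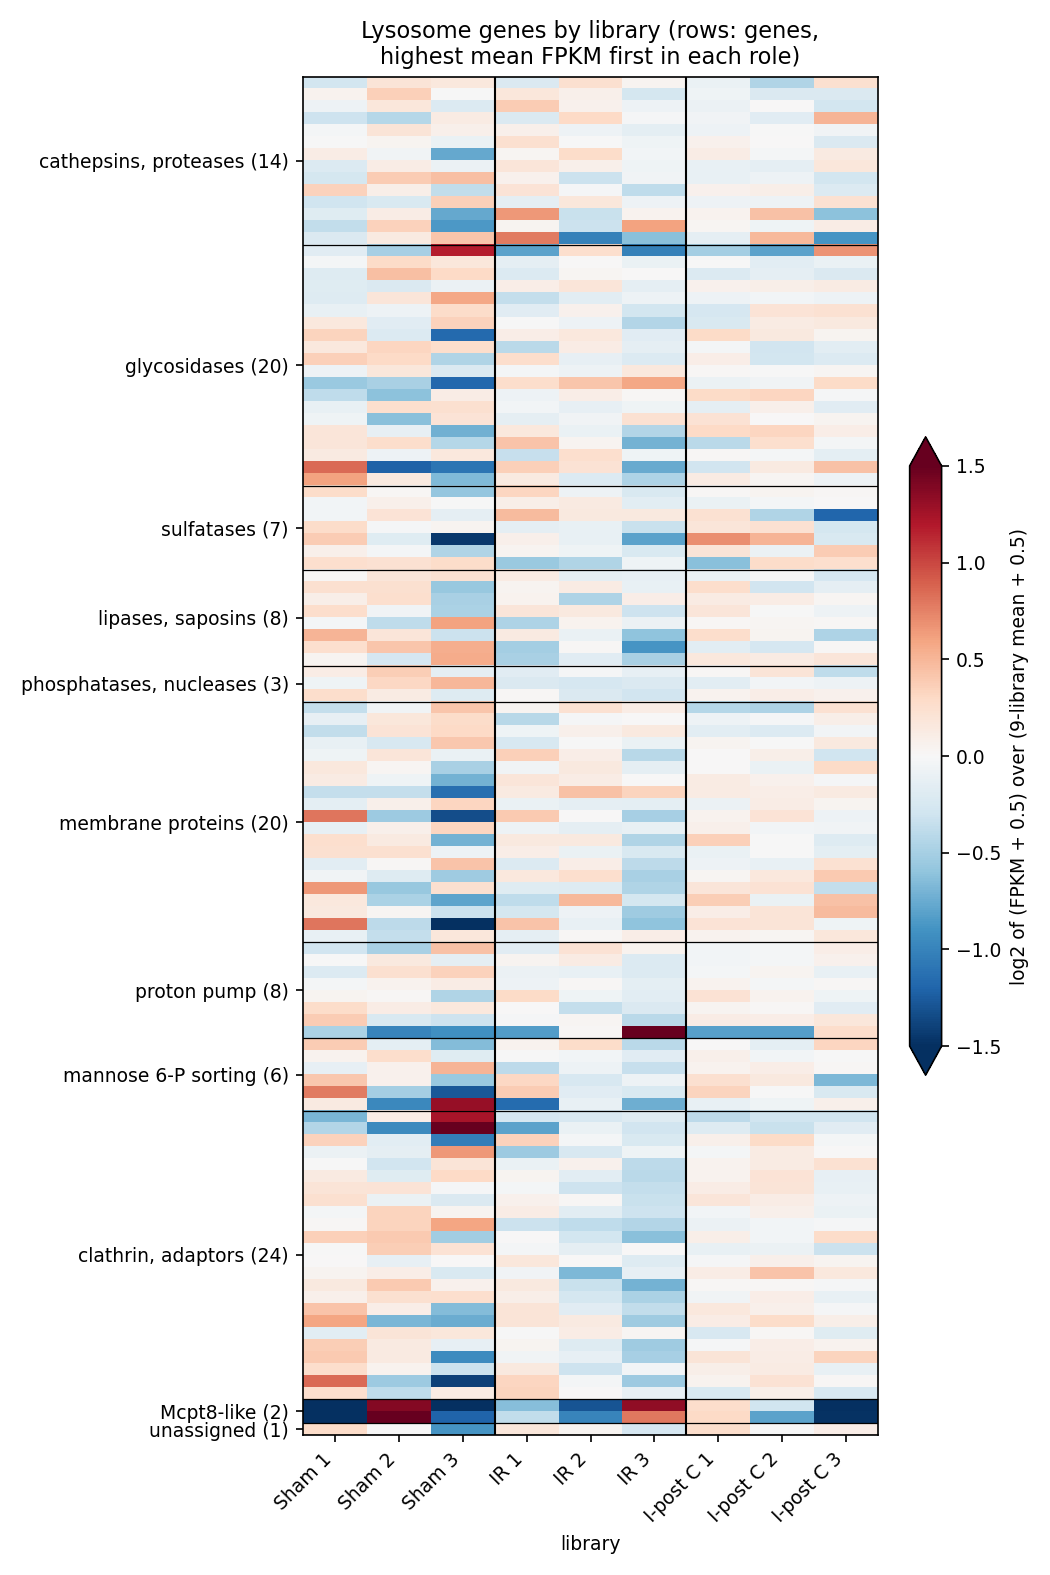
Levels of the 113 lysosome genes in the 9 libraries. Each row is a gene, grouped by role with the number of genes in brackets and the highest mean first; the colour gives log2 of (FPKM + 0.5) over (9-library mean + 0.5), red above and blue below. The strongest colours stood mainly in Sham 3, and the I-post C columns were the palest. Other libraries had strong colours for few genes, such as Atp6v0a4 in IR 3 and the Mcpt8-like genes in Sham 1 and Sham 2.

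Many lysosome genes in mammals carry a short palindrome, TCACGTGA, near their start, the core of the element bound by the transcription factor Tfeb and its relatives. RefSeq promoter sequences of the build GRCr8, 250 bases before to 50 bases after the annotated start, matched 92 of the 113 members by gene ID. TCACGTGA occurred in 10 of the 92 (10.9%), against 0.896% of the 27457 genes with such a sequence. The shorter CACGTG, which lies within TCACGTGA, occurred in 18 (19.6%), against 7.08%. Both motifs read the same on the other strand. The 10 promoters with the full palindrome are shown because they held a receptor (Igf2r), membrane proteins (Cd164, Lamp1, Cln3, Mcoln1), a pump subunit (Atp6v0d1), the sulfatase activator (Sumf1), enzymes (Galc, Ctsd) and a subunit of the tagging enzyme (Gnptg), with the motif in capitals and 11 bases on each side, 5′ to 3′ along the gene.
Igf2r: gaacgagaacgTCACGTGAcaggaggcggg
Cd164: cgccgggccgaTCACGTGAccgccgcgcgc
Lamp1: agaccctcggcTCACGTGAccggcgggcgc
Atp6v0d1: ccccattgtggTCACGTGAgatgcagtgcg
Cln3: cacgggtactgTCACGTGAtccccaacctg
Sumf1: aacacctcaggTCACGTGAcgccgtggatc
Galc: gggtgccacagTCACGTGAcccgcacaatg
Ctsd: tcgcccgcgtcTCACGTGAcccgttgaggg
Gnptg: cctgctgtcgcTCACGTGAccgtgcgaccc
Mcoln1: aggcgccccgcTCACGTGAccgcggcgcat
In GRCr8 these windows lie at chr1:50526741-50526770 (plus strand) for Igf2r, chr20:46606320-46606349 (plus strand) for Cd164, chr16:83075111-83075140 (minus strand) for Lamp1, chr19:50357283-50357312 (minus strand) for Atp6v0d1, chr1:190597950-190597979 (minus strand) for Cln3. The others lie at chr4:142716722-142716751 (minus strand) for Sumf1, chr6:123245562-123245591 (minus strand) for Galc, chr1:206968814-206968843 (minus strand) for Ctsd, chr10:14761597-14761626 (minus strand) for Gnptg, chr12:6358250-6358279 (plus strand) for Mcoln1.
The first base of the motif lay from 126 bases before the start (Igf2r) to 3 bases after it (Mcoln1), and Igf2r and Lamp1 held 2 copies, of which the one farther upstream is shown. The log2 fold changes of these 10 genes ran from -0.40 to 0.36 for IR against Sham (median -0.13), from -0.30 to 0.19 for I-post C against IR (median -0.03) and from -0.38 to 0.19 for I-post C against Sham (median -0.15). A match of letters is not a measured binding site.

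For IR against Sham, the question was which lysosome genes differed after clamping and reperfusion. No member passed edgeR's quasi-likelihood test (adjusted p under 0.05 over all 15402 genes tested and a log2 fold change of at least 1 in size), where 0.279% of all genes passed as higher and 0.0195% as lower. At an unadjusted p under 0.05, 3 members were higher and 2 lower, against 6.47% and 5.77% of all genes. The 3 include Atp6v0a4, which reached the FPKM limit only through IR, so that its test is not independent of that limit. DESeq2 on the 2 groups called 1 member, Hyal3, as higher and none as lower, against 1.51% and 0.39% of all genes. With limma on log2(FPKM + 0.5) no member passed, against 0.24% higher and 0.00649% lower of all genes. The median log2 fold change of the 113 members was -0.03, against -0.02 over all genes tested, with 53 above 0 and 60 below, and 102 members had a log2 fold change under 0.5 in size.

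The interval of the fold change says how large a missed difference could be. For 85 of the 113 members (75.2%, against 42.1% of all genes) the 95% interval of the log2 fold change lay between -1 and 1, and for 26 (10.7% of all genes) it lay within 1.5-fold in either direction. For any member, a difference inside its interval is not excluded at this number of libraries, and for the remaining members the intervals were wider.

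Hyal3 (ENSRNOG00000016093, chr8:116336512-116342146 in rn6), a member of the hyaluronidase family, had the smallest p of the 113. Its FPKM was 9.64, 10.1 and 6.08 in Sham, 17.4, 19.4 and 21.8 in IR and 13.4, 13.9 and 17.6 in I-post C. All 3 IR libraries lay above all 3 Sham libraries, and the lowest IR value, in IR 1, was below the highest I-post C value. The log2 fold change for IR against Sham was 1.27 (SE 0.27, 95% interval 0.67 to 1.87, edgeR adjusted p = 0.117), a level 2.42 times that of Sham. DESeq2 gave an adjusted p of 0.00393 on the 2 groups and 0.000422 on all 9 libraries. Hyal3 overlaps Naa80, an acetyltransferase gene on the same strand, so that reads of the pair may be shared. Naa80 had an FPKM of 62.2, 35.8 and 137 in Sham, 42.6, 63.8 and 38.2 in IR and 44.9, 63.2 and 67.6 in I-post C, highest in Sham 3, where Hyal3 was lowest, and its log2 fold change for IR against Sham was -0.66 (SE 0.45, edgeR adjusted p = 0.602). The neighbours Hyal1 and Hyal2, at the same locus, had log2 fold changes of 0.30 and -0.76 with SE of 0.52 and 0.57, and single libraries decided both directions (Hyal1 -0.03 without Sham 2, Hyal2 0.01 without Sham 3). The value of Naa80 was 0.11 without Sham 3.

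Litaf (ENSRNOG00000002520, chr10:4719713-4763510), a membrane protein of late endosomes and lysosomes known for its induction by lipopolysaccharide, came next. Its FPKM was 45.7, 45.6 and 26.6 in Sham, 64.3, 79.6 and 74.3 in IR and 64.0, 62.7 and 64.6 in I-post C. Every IR and every I-post C library lay above every Sham library, and Sham 3 was the lowest of all. The log2 fold change for IR against Sham was 0.98 (SE 0.22, edgeR adjusted p = 0.13), with a DESeq2 adjusted p of 0.0391 on the 2 groups at a size just under 1. The neutrophil marker sums given above were also higher in all 6 of these libraries, and their part in the Hyal3 and Litaf values was not tested.

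On the lower side, Pla2g15 (ENSRNOG00000019859, chr19:38129584-38146956), the lysosomal phospholipase A2 whose loss in mice fills alveolar macrophages with phospholipid, had an FPKM of 35.5, 39.8 and 43.6 in Sham, 20.8, 30.1 and 15.9 in IR and 26.5, 24.8 and 30.0 in I-post C. All Sham libraries lay above all others. Its log2 fold change for IR against Sham was -0.79 (SE 0.24, edgeR adjusted p = 0.261). Ap3s2 (ENSRNOG00000043141, chr1:141612963-141655894), a small subunit of the AP-3 adaptor that sorts cargo to lysosomes, had 24.5, 30.6 and 36.9 FPKM in Sham, 19.3, 18.5 and 17.7 in IR and 22.8, 23.5 and 23.9 in I-post C. The 3 groups did not overlap, with I-post C between IR and Sham. Its log2 fold change for IR against Sham was -0.68 (SE 0.23, edgeR adjusted p = 0.294).

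Atp6v0a4, a subunit of the proton pump best known from acid-secreting cells of the kidney, had the largest fold change of the members but rested on 1 library. Its mean FPKM was 0.178 in Sham and 0.401 in I-post C against 1.41 in IR, and over the 6 libraries outside IR it was 0.289, so that it reached the limit of 0.5 only through IR and its test is not independent of that limit. Its FPKM was 0.334, 0.0853 and 0.116 in Sham, 0.151, 0.673 and 3.40 in IR and 0.158, 0.153 and 0.891 in I-post C. IR 3 was the only library above 1 FPKM, and IR 1 lay inside the Sham range. Its log2 fold change for IR against Sham was 3.21 (SE 1.20, edgeR adjusted p = 0.333), and it was 1.27 without IR 3. IR 3 is also the library with the muscle transcripts, and whether they came with it was not tested. Abcb9 likewise reached the limit only through 1 group, with a mean of 0.471 FPKM over the 6 libraries outside I-post C. Its tests of I-post C are therefore not independent of the limit.

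The rest of the 10 members with the smallest p were lower in IR, none past the test. Their log2 fold changes were -0.45 for the AP-1 subunit Ap1g2, -0.46 for Dnase2, which digests DNA in lysosomes, -0.31 for the pump subunit Tcirg1, -0.50 for the thioesterase Ppt2 and -0.30 for the adaptor Gga2. Without Sham 3, Dnase2 had -0.29 and Ppt2 -0.18. The FPKM of Dnase2 was 38.5, 50.2 and 57.1 in Sham and 34.6, 33.7 and 34.5 in IR. Dnase2, Tcirg1 and Gga2 did not overlap between Sham and IR. In all, 2 members had FPKM in IR entirely above those in Sham (5.62% of all genes) and 8 entirely below (9.44% of all genes): Arsa, Galns, Fuca2, Tcirg1, Gga2, Pla2g15, Dnase2 and Ap3s2.

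**Figure D2:**
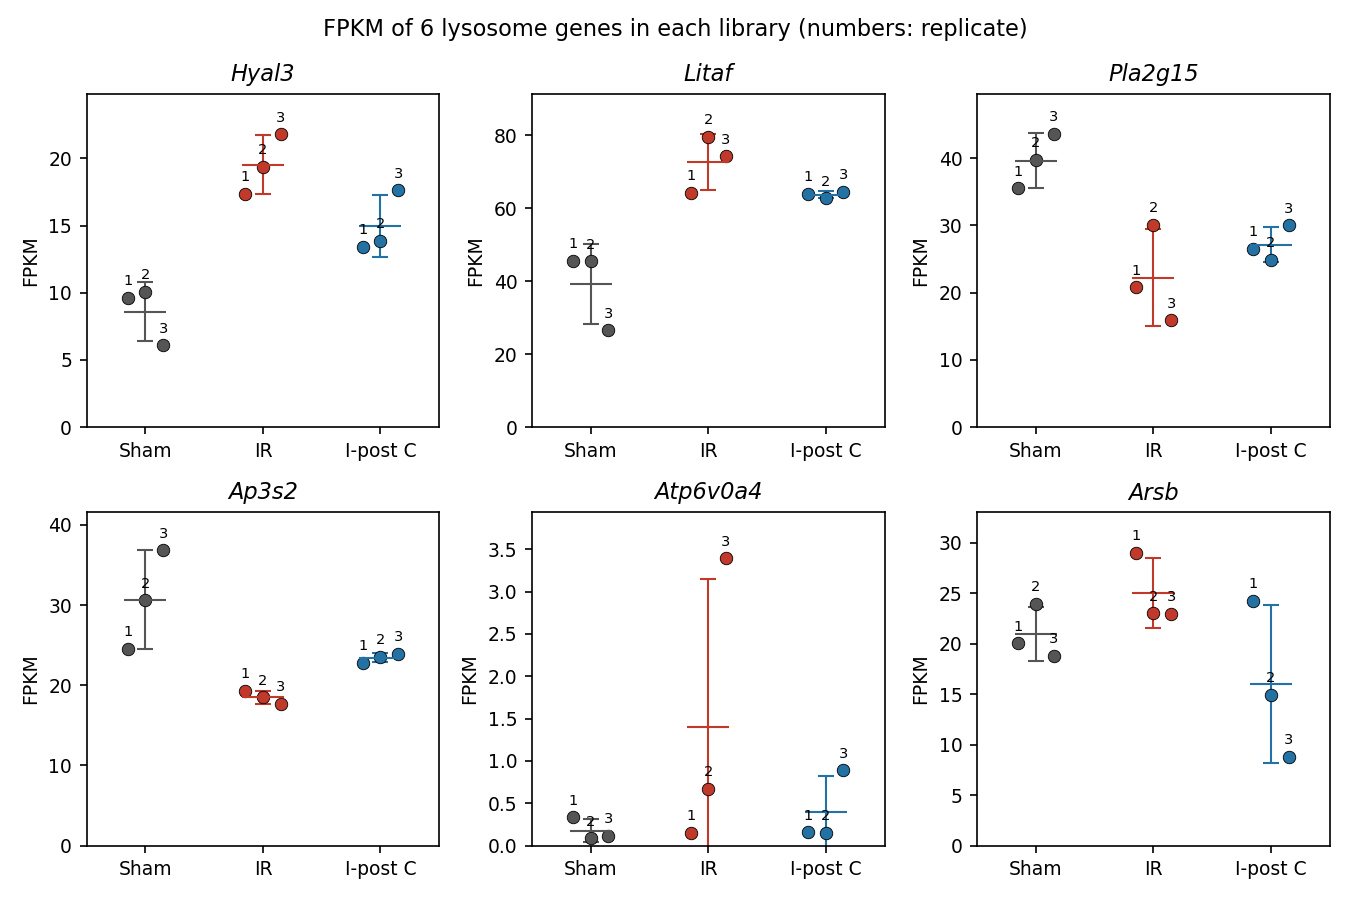
FPKM of Hyal3, Litaf, Pla2g15, Ap3s2, Atp6v0a4 and Arsb in each library. Points are libraries marked with their replicate number, and bars give the mean and SD of 3 libraries (bars of Atp6v0a4 that reach below 0 end at the axis). Hyal3 and Litaf were lowest in Sham, Pla2g15 and Ap3s2 highest in Sham, Atp6v0a4 was high in IR 3 alone, and Arsb was spread out in I-post C.

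By role, members lay on both sides of 0 in IR against Sham, except for the 3 phosphatases and nucleases, which were all below 0 (median -0.17), or 2 of 3 without Sham 2. Of the 24 clathrin and adaptor genes, 17 had log2 fold changes below 0 and the median was -0.18, from -0.80 (Cltb) to 0.31 (Cltc). Both ends rested on Sham 3, without which Cltb was at 0.44 and Cltc at 0.03. The 14 proteases had 9 above 0 and a median of 0.11, the 20 glycosidases 8 above 0 and a median of -0.04, the 20 membrane proteins 12 above 0 and a median of 0.08, and the 8 proton pump genes 4 above 0 and a median of 0.01. No role held more than 1 member with an unadjusted p under 0.05.

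For I-post C against IR, the question was whether post-conditioning changed lysosome genes beyond clamping and reperfusion. No member passed edgeR's test in either direction, and no gene of all those tested did (0.0% of all genes). At an unadjusted p under 0.05 no member was higher and 1, Arsb, was lower, against 1.05% and 1.96% of all genes. DESeq2 on the 2 groups called no member, against 0.11% higher and 0.13% lower of all genes, and limma called 0.0% of all genes. The median log2 fold change was -0.04 over the members and -0.01 over all genes tested. Of the members, 47 were above 0 and 66 below, and of all genes tested 7329 and 8071. The 95% interval lay between -1 and 1 for 91 members (80.5%, against 51.1% of all genes). It lay within 1.5-fold for 43 (15.5% of all genes).

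Arsb had an FPKM of 20.1, 24.0 and 18.8 in Sham, 29.0, 23.0 and 23.0 in IR and 24.3, 15.0 and 8.80 in I-post C. I-post C 1 lay inside the IR range, and I-post C 2 and 3 below all other libraries. Its log2 fold change was -0.77 (SE 0.32, edgeR adjusted p = 1), and leaving out I-post C 3 gave -0.49, whereas leaving out I-post C 1 gave -1.21. Hyal3 and Litaf had log2 fold changes of -0.53 (SE 0.26) and -0.33 (SE 0.21), each with an edgeR adjusted p of 1, and their I-post C libraries overlapped those of IR. Without IR 3, Hyal3 had -0.35. The cystine exporter Ctns had 3.40, 3.93 and 2.72 FPKM in IR and 4.53, 4.87 and 5.98 in I-post C, without overlap, and a log2 fold change of 0.49 (SE 0.24, edgeR adjusted p = 1).

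All 14 cathepsins and other proteases had log2 fold changes below 0 in I-post C against IR, from -0.37 to -0.04 with a median of -0.20, and none passed the test. The leading values were -0.37 for Ctsb (SE 0.18), -0.30 for Ctsd (SE 0.19) and -0.24 for Lgmn, the asparaginyl endopeptidase that matures other cathepsins (SE 0.15), each with an edgeR adjusted p of 1. The 95% intervals of all 14 held 0. The direction of the group was not kept under every scaling. With limma on log2(FPKM + 0.5), where the median of all genes was 0.11 rather than -0.01, 5 of the 14 were above 0 and their median was -0.07. With edgeR and any 1 library of IR or I-post C left out, 1 or 2 of the 14 were above 0 (2 without IR 3). FPKM of the proteases overlapped between IR and I-post C throughout.

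Other members among the 10 smallest p were Ap1s2, an AP-1 subunit (0.37, SE 0.22, and 0.19 without IR 2), Ppt2 (0.41, SE 0.25) and Atp6v0a4 (-2.02, SE 1.14, and -0.09 without IR 3 or -3.39 without I-post C 3). The FPKM of 15 members were higher in every I-post C library than in every IR library (11.2% of all genes) and that of 1, Clta, was lower in every one (2.59% of all genes). The 15 were Ppt2, Ap1s1, Nagpa, Laptm4b, Fuca1, Acp2, Ap3m2, Cln3, Lamp1, Dnase2, Gnptg, Ctns, Ap1s2, Ap3s2 and Atp6v0a2. These FPKM do not carry the scaling of edgeR. On log2(FPKM + 0.5) the median of all genes was 0.11 rather than -0.01, so that no overlap in FPKM need not mean a raised level in edgeR. Cln3, among the 15, had an edgeR log2 fold change of -0.03. Clta had 79.8, 80.5 and 83.1 FPKM in IR and 71.9, 77.0 and 76.8 in I-post C, a small gap beside its value of 224 in Sham 3.

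For I-post C against Sham, which compares post-conditioned with unclamped lungs, again no member passed edgeR's test and 0.0% of all genes did. At an unadjusted p under 0.05, 2 members were higher and 1 lower, against 3.72% and 3.19% of all genes, and neither DESeq2 on the 2 groups (0.617% higher and 0.0844% lower of all genes) nor limma (0.00649% higher and 0.0% lower) called a member. The members' median was -0.11, against -0.03 over all genes, with 41 above 0 and 72 below. The 95% interval lay between -1 and 1 for 85 members (75.2%, against 44.5% of all genes) and within 1.5-fold for 27 (12.8% of all genes).

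The 3 members with the smallest p were those of IR against Sham, which shares the Sham libraries with this comparison. Litaf had a log2 fold change of 0.65 (SE 0.22, edgeR adjusted p = 0.664), Hyal3 of 0.75 (SE 0.26, edgeR adjusted p = 0.667) and Pla2g15 of -0.62 (SE 0.24, edgeR adjusted p = 0.695). For these 3 genes every I-post C library lay outside the Sham range. The next were lower in I-post C: the fucosidase Fuca2 (-0.49), the AP-1 subunit Ap1m2 (-0.47), Ap3s2 (-0.48), Dnase2 (-0.46), Hexa (-0.49), the nucleotidase Entpd4 (-0.29) and Clta (-0.89), with edgeR adjusted p from 0.722 to 0.745. Without Sham 3, Clta was at -0.15, and Ap3s2 and Dnase2 were both at -0.28. In all, 5 members were higher without overlap (5.56% of all genes) and 8 lower (4.08% of all genes).

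**Figure D3:**
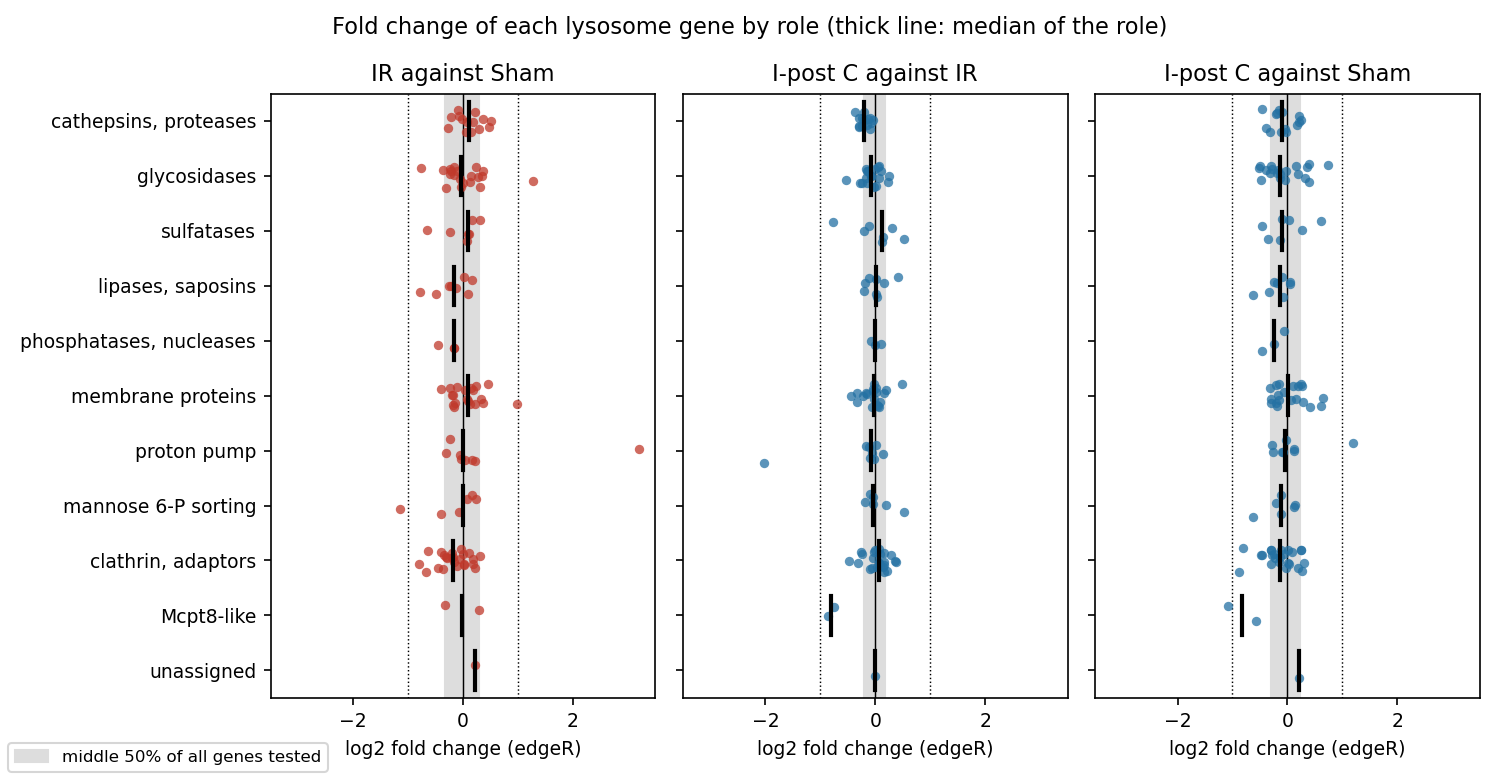
edgeR log2 fold changes of the 113 lysosome genes by role in the 3 comparisons. Points are genes, thick lines the median of the role, the grey band the middle 50% of all 15402 genes tested, and dotted lines a log2 fold change of -1 and 1. Most points lay inside or next to the band, the 14 proteases lay below 0 in I-post C against IR, and the point near 3.21 is Atp6v0a4.

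Of the 9 libraries left out in turn, Sham 1 moved these counts most. Without it, 23 members had an unadjusted p under 0.05 in IR against Sham (9 higher and 14 lower, against 13.5% and 12.7% of all genes) and 27 in I-post C against Sham (9 higher and 18 lower, against 11.6% and 12.5% of all genes), and still none had an adjusted p under 0.05. The smallest adjusted p were then 0.0888 for Ap3s2 and 0.114 for Hexa.

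Spread between libraries of a group was smaller for the lysosome genes than for genes at large, and widest in Sham. The members were also more abundant (median 25.1 against 7.95 FPKM). Neither this spread nor the share of narrow intervals was compared with genes of like level. The median coefficient of variation of FPKM was 23.0% over the members and 33.9% over all genes in Sham, 15.7% and 22.2% in IR, and 9.32% and 16.3% in I-post C. Sham 3 had the highest FPKM of the 9 libraries for 30 members (26.5%, against 23.9% of all genes) and the lowest for 35 (31.0%, against 32.2%), shares near those of genes at large. Sham 1 had the highest for 27 (23.9%, against 25.5%). Larger departures from genes at large were Sham 2, with the highest for 19 (16.8%, against 7.75%), and IR 3, with the lowest for 32 (28.3%, against 19.8%).

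The clathrin triskelion, built of heavy chains with a light chain on each, shows the pattern of Sham 3. Its light chain Cltb had 46.7, 32.4 and 182 FPKM in Sham, 36.1, 58.9 and 51.7 in IR and 55.3, 50.2 and 56.3 in I-post C. Clta had 58.7, 101 and 224 in Sham, and the heavy chain Cltc 65.0, 45.6 and 24.5 in Sham, 64.5, 49.8 and 43.3 in IR and 53.4, 61.9 and 49.7 in I-post C. Both light chains were highest and the heavy chain lowest in Sham 3, so that the ratio of their FPKM differed between libraries of the Sham group. Of the 9 libraries, the study lists Sham 3 with the lowest mapped and uniquely mapped shares of reads. It also had the highest GC content and exon share. The part of these values in the pattern was not tested. Nagpa, which uncovers the mannose 6-phosphate tag, was also high in Sham 3, at 4.69, 1.91 and 11.2 in Sham, and Gnptab, the large subunit of the tagging enzyme, low, at 20.6, 8.10 and 4.58.

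These genes differ in length, which the files give only as counts per unit of FPKM. Over the 38 shortest members the median ratio of Sham 3 to the mean of Sham 1 and 2 was 1.12, and over the 38 longest 0.746, and over all genes above 0 in every library the 4998 shortest and the 4997 longest had 1.22 and 0.643. Sham 1, set against the mean of Sham 2 and 3, showed the reverse, with 0.795 over the short and 1.26 over the long members. Each of Sham 1 and Sham 3 is part of the mean that the other is set against, so that these opposite trends are not independent. Across the 113 members the correlation of relative length with this log2 ratio in Sham 3 was r = -0.20 (Spearman's rho = -0.25), a description over genes that share these libraries. With each library set against the other 2 of its group, it was stronger in Sham 1 (r = 0.40, rho = 0.50), while IR 1 had r = 0.15 (rho = 0.31), IR 3 r = -0.17 (rho = -0.30) and the other 5 libraries rho from -0.19 to 0.15. The part of transcript length in the members' fold changes was not tested.

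**Figure D4:**
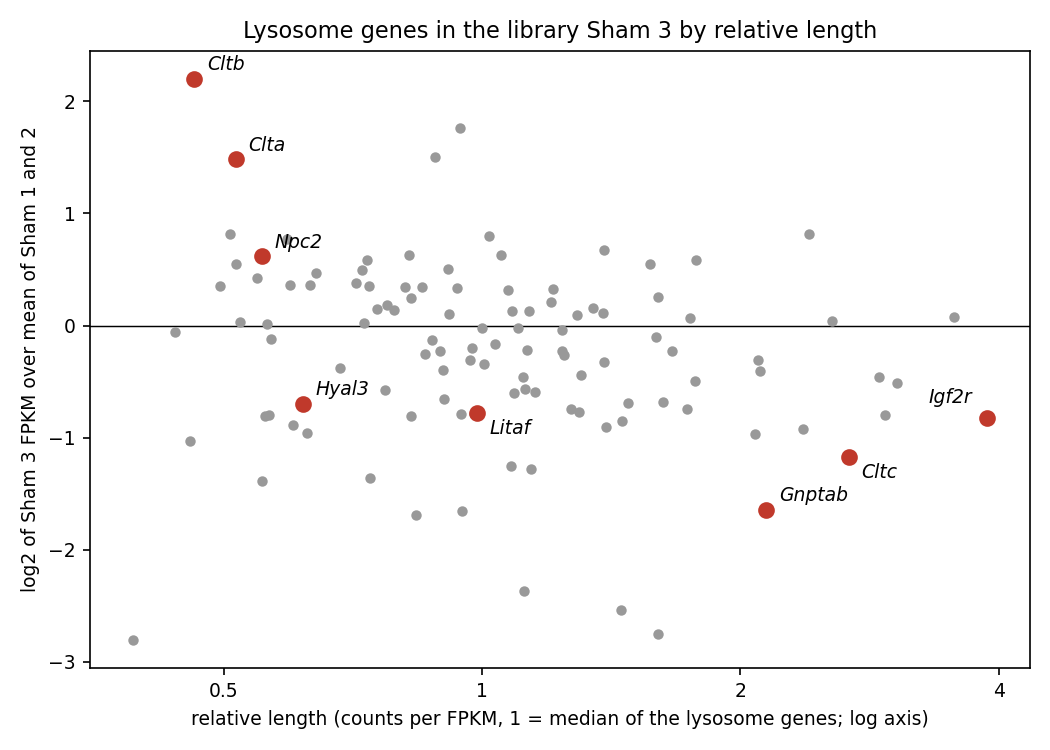
Lysosome genes in Sham 3 by relative length. The x axis (log scale) gives counts per FPKM, set to 1 at the median of the 113 lysosome genes, and the y axis log2 of the FPKM in Sham 3 over the mean of Sham 1 and 2; each point is a gene, with 8 named in red. The light chains Clta and Cltb lay at the short end above 0, and Cltc, Gnptab and Igf2r at the long end below 0. The trend was loose (r = -0.20), and genes at both ends went the other way. Mcpt8l2, the shortest, lay at -2.80, and the long Abcb9 at 0.81.

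Genes that act on lysosomes from outside the KEGG list were read from 5 lists. Among the 21 tested genes of the MiT/TFE factors and the Rag and mTORC1 switch, which set the output of lysosome genes, none passed edgeR's test in any comparison, 2 had an unadjusted p under 0.05 (both lower in IR against Sham, where 5.77% of all genes were) and the median log2 fold change was -0.07 in IR against Sham, -0.10 in I-post C against IR and -0.22 in I-post C against Sham. Tfeb had an FPKM of 9.42, 4.72 and 24.5 in Sham, 5.55, 7.41 and 6.06 in IR and 8.48, 10.1 and 7.20 in I-post C, with the highest value in Sham 3 and no separation of the groups. Its relative Tfe3 had 11.8, 8.63 and 5.56 in Sham, 12.8, 13.9 and 9.39 in IR and 16.1, 13.6 and 10.4 in I-post C. Folliculin (Flcn), which acts on the Rag switch, had 20.1, 24.2 and 22.8 in Sham and 13.5, 16.3 and 13.4 in IR, without overlap, and a log2 fold change of -0.58 (SE 0.20, edgeR adjusted p = 0.296).

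The 9 tested genes of the V1 sector of the proton pump, the part that splits ATP, had no edgeR call and 1 unadjusted p under 0.05, for Atp6v1c2 in I-post C against Sham (log2 fold change -0.70, SE 0.28, edgeR adjusted p = 0.707), where 3.19% of all genes were lower at that p. Without I-post C 3 its value was -0.44. Atp6v1g1, Atp6v1e1 and Atp6v1f led with means of 182, 102 and 95.6 FPKM. Of 35 tested autophagy genes none passed edgeR's test, and at an unadjusted p under 0.05 5 were higher in IR against Sham (6.47% of all genes) and 3 in I-post C against Sham (3.72% of all genes). Vmp1, which forms autophagosomes, had an FPKM of 38.5, 47.4 and 35.5 in Sham, 73.1, 63.5 and 61.2 in IR and 69.6, 62.1 and 60.6 in I-post C. Every clamped library lay above every Sham library, with a log2 fold change of 0.76 in IR against Sham (SE 0.18, edgeR adjusted p = 0.143). Gabarap, Sqstm1 and Map1lc3a were the most abundant of this list, with means of 372, 153 and 148 FPKM.

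The 7 tested cathepsin inhibitors had no edgeR call, and at an unadjusted p under 0.05 1 was higher (Stfa2) and 1 lower (Serpinb6a) in IR against Sham, against 6.47% and 5.77% of all genes. DESeq2 on the 2 groups called no gene of these first 4 lists. Cystatin C (Cst3), the most abundant, had 346, 699 and 2037 FPKM in Sham, 345, 537 and 655 in IR and 432, 359 and 528 in I-post C, and Sham 3 was again apart. Cstb and Serpinb6a followed with means of 146 and 126 FPKM.

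Of the 13 tested genes of lysosome damage and repair, led by the galectins Lgals3 and Lgals1 at means of 187 and 157 FPKM and by Vcp at 97.3, none passed edgeR's test, and Trim16 came closest. Trim16, which acts with galectin-3 at damaged lysosomes in human cells, had an FPKM of 1.98, 2.09 and 0.699 in Sham, 7.65, 5.94 and 6.62 in IR and 2.46, 1.40 and 2.43 in I-post C. All 3 IR libraries lay above the other 6. Its log2 fold change was 2.17 in IR against Sham (SE 0.41, edgeR adjusted p = 0.0911) and -1.81 in I-post C against IR (SE 0.41, edgeR adjusted p = 1), and DESeq2 on the 2 groups called both. The galectin genes themselves were called neither by edgeR nor by DESeq2 on the 2 groups.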

How the data were processed

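FPKM values and whole-number counts per gene and library were taken as deposited by the authors, in 1 table for 9 lung libraries, 3 per group. Per the submitters' processing notes, reads were trimmed with cutadapt 1.9, aligned with HISAT2 2.2.1 to the rat genome rn6, and assembled with StringTie 2.1.6, and per the study's methods, which name another StringTie version, transcripts were merged before FPKM were estimated. How the deposited counts were made, and whether strand was used, was not given in the sources used here, so no counting intervals are stated. The number of columns of per-library values that matched no library was 0. Gene coordinates are those of the table, and promoter sequences come from RefSeq (GRCr8).

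The members and lists were chosen with earlier results of these data known, and the roles of Fuca2, LOC100909548 and the Mcpt8-like genes were assigned after their values were seen. Counts of the 15402 genes whose FPKM averaged 0.5 or more were tested with edgeR 4.0.16 (R 4.3.3; TMM factors, quasi-likelihood test, all 9 libraries in 1 fit, group as the only term), with Benjamini-Hochberg adjustment over all genes tested. A call needed an adjusted p under 0.05 and a log2 fold change of at least 1 in size. IR was compared with Sham, and I-post C with both. Alternatives were DESeq2 1.42.0 (on all libraries and on the 2 groups compared), the 2 groups alone in edgeR, other size factors, no filter, a minimum mean FPKM of 1, limma 3.58.1 on log2(FPKM + 0.5) with pseudocounts of 0.1 and 1 besides, the replicate number as a block, each library left out and, chosen after seeing the data, Sham 3 and IR 3 left out. The edgeR script was tested on simulated counts.

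Genes named with values were the 10 members with the smallest p in each comparison, the 3 most abundant of each role (apart from an entry that is not reported here), the extremes of level and spread, and the most abundant genes of the other lists. Other members were named after their values were seen: those without overlap between groups, the neighbours of Hyal3, genes far out in Sham 3 (Gnptab, Nagpa), and Tfeb, Tfe3, Flcn, Vmp1, Atp6v1c2, Stfa2 and Trim16 of the lists. Of the members, 24 overlap another gene model.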

Additional observations from a re-analysis of the deposited data

How the results depend on the processing

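With 3 libraries per group, differences inside the intervals in the report are not excluded. The count of lysosome genes past the test stayed at 0 in each comparison and direction under all alternatives except DESeq2, which called 1 member higher in IR against Sham, Hyal3, both on all 9 libraries (1) and on the 2 groups (1). The cause was not tested. DESeq2 also gave Litaf an adjusted p of 0.00312 and 0.0391 in these fits, where edgeR gave 0.13, at log2 fold changes of 0.97 and 0.97. The median log2 fold change of the members in I-post C against IR was -0.04 and became 0.0896, 0.0974 and 0.0867 with limma on log2(FPKM + 0.5), log2(FPKM + 0.1) and log2(FPKM + 1), where the median of all genes also rose, to 0.11, 0.12 and 0.10. Less the median of all genes it stayed within the spread between libraries. With each library left out in turn, the members' median ran from -0.10 to 0.00 in IR against Sham, from -0.06 to -0.01 in I-post C against IR and from -0.18 to -0.05 in I-post C against Sham, and no member had an adjusted p under 0.05. Leaving out both Sham 3 and IR 3, an alternative chosen after seeing the data, gave 0 members past the test and medians of -0.03, -0.02 and -0.09. For the 10 members with the smallest p in each comparison, 199, 199 and 200 values under the alternatives kept their direction, and 4 had an adjusted p under 0.05 where edgeR did not, those of Hyal3 and Litaf under DESeq2 (Litaf with a log2 fold change under 1). Over all 113 members, 53, 47 and 51 changed direction when 1 library was left out.

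Libraries with the same replicate number deviated together in some pairs and not in others. Of the 9 pairs, 4 correlated over 0.1 (range -0.27 to 0.45). The highest were Sham 1 with IR 1 (0.45), Sham 3 with IR 3 (0.27) and Sham 3 with I-post C 3 (0.23). The pairs of replicate 2 were all below 0, and 1 library correlated best with its own number in both other groups. With the replicate number as a block, edgeR called 26 genes in IR against Sham instead of 46 and 0 members in each comparison, and the members' medians were -0.02, -0.03 and -0.09.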

Other observations

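Among the 6 annotated lysosome genes under the limit of 0.5 FPKM, Ctsg, the cathepsin G of neutrophil granules, had a mean of 0.0504 FPKM over the 9 libraries, and Atp6v0d2, a pump subunit of osteoclasts and some macrophages, had 0.328. Psapl1, Hyal6 and Hyal4 had means of 0.0341, 0.00911 and 0.00191 FPKM. They entered no test in the report.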
